A study of Homo sapiens with 11 samples.

Results

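The genes of epithelial-mesenchymal transition (EMT) followed in MDA-MB-231 cells were VIM, FN1, CDH2, CDH1, ZEB1, ZEB2, SNAI1, SNAI2, TWIST1 and TWIST2. They were chosen by name and not by a measured value, as 10 of the 23167 genes in the count tables, and all 10 were found there by Ensembl identifier. MDA-MB-231 is an established triple-negative breast cancer (TNBC) cell line with a mesenchymal appearance. RNA-seq of total RNA compared 2 wild-type (WT) libraries, from cells given the transfection reagent without siRNA, with 2 mH2A1.1 knockdown (KD) libraries, from cells given an siRNA against mH2A1.1 at 11 nM, all collected on day 3. ChIP-seq of WT cells, with 1 library for an antibody specific to mH2A1.1 and 1 for an antibody against total mH2A1, gave a list of peaks for each. mH2A1.1 is one of the splice isoforms of the histone variant macroH2A1. The siRNA used for the RNA-seq is not named in the sources used here, WT cells received no control siRNA, and nothing states that the replicates were separate cultures, so p-values measure only the spread between these libraries.

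In EMT, epithelial cells loosen their cell-cell junctions and take on the shape and motility of mesenchymal cells. Transcription factors of the SNAI, ZEB and TWIST families drive it, and the SNAI and ZEB proteins repress CDH1 (E-cadherin, the adhesion protein of epithelial junctions) through E-box motifs in its promoter. Cells that have passed through it typically carry vimentin (VIM) filaments, secrete fibronectin (FN1) and can gain N-cadherin (CDH2), and breast cancer lines of the claudin-low kind, such as MDA-MB-231, show this state without treatment.

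The libraries were not alike. Their totals on genes were 9794674 and 7856892 counts for the WT libraries but 5584962 and 2309549 for KD replicates 1 and 2, and Pearson's r of log2 CPM (counts scaled to a common library total) across genes was 0.995 for the WT pair and 0.962 for the KD pair. Chromosomes 22 and X were empty in KD replicate 2 and chromosome 21 held 30 counts, so genes of these chromosomes were left out of the tests (none of the 10 lies there). It also stood apart by base composition, with a median log2 ratio to WT of -0.80 for genes under 40% GC and 0.71 for genes over 55% GC, against -0.25 and 0.19 in KD replicate 1. These medians are of genes of at least 5 CPM in WT. MACROH2A1, the gene of the targeted isoform, had 385 and 394 CPM in WT and 274 and 300 CPM in KD (log2 fold change -0.44 ± 0.17 SE, adjusted p = 0.205, edgeR), and counts over the whole gene do not separate its isoforms. Of the markers of the line, VIM, CD44, EGFR, KRT8 and KRT18 were at 344 CPM or more in each WT library. ESR1, PGR and the fibroblast gene DCN were listed at 0 in all 4 libraries, and the other fibroblast genes, LUM, COL3A1 and PDGFRA, reached at most 2.84 CPM in any. ERBB2, grouped with ESR1 and PGR as a luminal receptor, had 79.95 and 80.22 CPM in WT and 86.9 and 128 CPM in KD.

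In WT cells, the EMT genes covered a wide range of levels per length. VIM stood highest, at 447 and 484 RPKM (CPM divided by the summed exon length in kb), above 99.5% of the genes with a WT count. FN1 followed at 44.8 and 43.3 RPKM. ZEB1 at 19.1 and 17.5 RPKM and SNAI2 at 16.7 and 18.2 RPKM came next, and their ranges overlapped. SNAI1 had 1.54 and 1.70 RPKM and ZEB2 1.25 and 1.21 RPKM, a step below. CDH1 at 0.381 and 0.411 RPKM and CDH2 at 0.257 and 0.383 RPKM were the lowest of those with counts and overlapped as well. Divided by the length of the canonical transcript instead, ZEB2 stood above SNAI1 (means of 3.47 and 1.62 RPKM) and CDH2 above CDH1 (0.684 and 0.50 RPKM), so these orders rest on the length used. TWIST1 and TWIST2 were listed at 0 in all 4 libraries. A count of 0 allows up to between 0.306 and 1.30 CPM per library (3 counts, counting error only), but RPS25, PSMC4 and EIF3K, genes that every cell uses and that were picked here after their values were seen, were also listed at 0 in the same tables, so a 0 says only how the gene is listed.

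**Figure D1:**
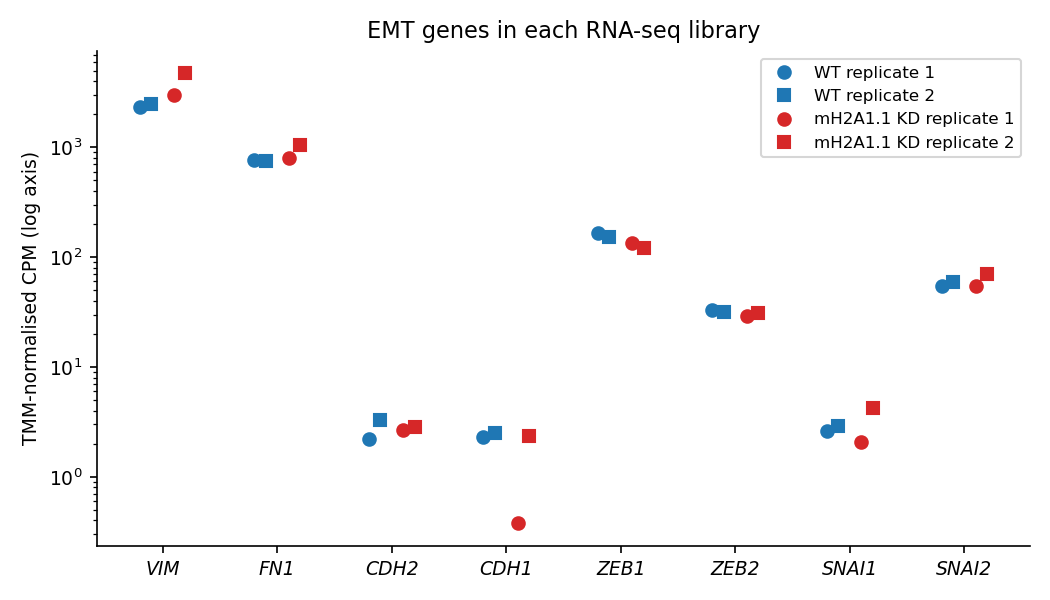
TMM-normalized CPM (log axis) of the 8 EMT genes with counts in each of the 4 RNA-seq libraries, 1 point per library; TWIST1 and TWIST2 are listed at 0 and not drawn. VIM is the highest gene in every library, and CDH1 in KD replicate 1 (0.378 CPM) is the lowest point.

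Whether loss of mH2A1.1 moved these genes was asked by comparing KD with WT. A gene was called when its fold change exceeded 1.5 and its adjusted p was under 0.1. The edgeR quasi-likelihood test called 0 of the 8 EMT genes in the fit, as it called 0 of all 10963 genes tested (0%). At an unadjusted p under 0.05 with the same fold, 1 of the 8 passed (VIM), against 18.8% of all genes. Of the 8, 5 received an adjusted p from DESeq2, which called 1 of them, VIM, as higher, against 5.52% of all genes called higher and 5.73% called lower by that tool. Both KD libraries lay above both WT libraries for VIM and FN1, as for 32.5% of all genes, and below them for ZEB1 and ZEB2, as for 32.4%. The median log2 fold change was 0.01 over the 8 genes and 0.01 over all genes tested. With a correction for length and GC content these medians were 0.27 and 0.09.

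Of the mesenchymal products, VIM, the intermediate filament protein of mesenchymal cells, showed the largest difference towards KD. It had 2315 and 2506 CPM in the WT libraries and 2978 and 4726 CPM in the KD libraries. The KD libraries were both higher, by 1.24-fold and 1.96-fold over the WT mean, and so differed from each other by more than replicate 1 did from WT. The fitted log2 fold change was 0.68 ± 0.25 (SE), with an adjusted p of 0.198 in edgeR and 0.0992 in DESeq2 (0.130, not called, in DESeq2 with chromosomes 21, 22 and X kept). Without KD replicate 2 it was 0.31 ± 0.09 (adjusted p = 0.00533, edgeR), under the fold threshold, and without KD replicate 1 it was 0.96 ± 0.10 and called (adjusted p = 1.43e-21). Leaving out a KD library leaves a single one, which is then assumed to vary like the WT pair, and 20.4% of all genes were called higher without KD replicate 1. With no filter on low counts VIM was called too (adjusted p = 0.00943, edgeR), as were 6.80% of all genes in that direction. Corrected for length and GC content, the value was 0.63 (adjusted p = 0.144). VIM took up 0.225% and 0.243% of all counts in WT and 0.282% and 0.433% in KD. VIM-AS1, which overlaps the start of VIM on the opposite strand, had 13.0 and 13.2 CPM in WT and 10.2 and 9.45 CPM in KD, both KD values below WT. The annotation places 16 genes opposite 8 of the 10 EMT genes or within 1 kb of their starts, of which VIM-AS1 and ZEB2-AS1 (at most 1 count) are in the count tables. The libraries were prepared with a strand-specific kit and counted with default parameters, and no strand setting is named beyond that.

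FN1, the fibronectin of the extracellular matrix, had 771 and 746 CPM in WT and 801 and 1046 CPM in KD. The KD libraries were both above WT, replicate 1 by 1.06-fold only. The log2 fold change of 0.28 ± 0.20 (adjusted p = 0.383, edgeR) became 0.08 ± 0.09 without KD replicate 2. CDH2, the cadherin of mesenchymal and neural cells, had 21 and 25 counts in WT and 14 and 6 in KD, or 2.21, 3.29, 2.65 and 2.84 CPM. The KD values lay within the WT range, and the log2 fold change was -0.00 ± 0.41.

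For the 2 most abundant EMT genes, the 250 bases before the RefSeq start (GRCh38.p14) are shown. Both have high RNA levels, and neither has a peak of either list over that start. Capitals mark GGGCGG (the GC box) and, in FN1, TGACGTCA (the cAMP response element), found on either strand. VIM lies at chr10:17227991-17228240 on the plus strand and FN1 at chr2:215436069-215436318 on the minus strand.
VIM: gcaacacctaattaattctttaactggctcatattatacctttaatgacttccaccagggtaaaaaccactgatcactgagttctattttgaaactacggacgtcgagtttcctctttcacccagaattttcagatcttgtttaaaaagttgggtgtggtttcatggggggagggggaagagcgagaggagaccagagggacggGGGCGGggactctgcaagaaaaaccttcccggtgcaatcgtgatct
FN1: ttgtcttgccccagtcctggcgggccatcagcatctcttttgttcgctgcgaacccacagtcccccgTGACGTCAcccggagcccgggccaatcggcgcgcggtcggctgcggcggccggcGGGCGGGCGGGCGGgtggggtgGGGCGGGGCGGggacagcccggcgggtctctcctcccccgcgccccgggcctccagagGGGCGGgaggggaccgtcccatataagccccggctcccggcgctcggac
The VIM window holds 46.0% GC and 1 GC box, and the FN1 window 76.4% GC, 6 GC boxes, some of which share bases, and 1 cAMP response element. GGGCGG occurs in 42.6% and TGACGTCA in 1.65% of the 35116 RefSeq windows of this kind. The E-box CAGGTG , searched on both strands, the motif through which SNAI and ZEB proteins bind, is in neither window and in 17.5% of all windows. Of the 10 genes, 6 had an entry, and among them only ZEB1 held the E-box, in 2 of its 7 windows. CDH1, SNAI1, SNAI2 and TWIST1 had no entry.

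CDH1, the epithelial member, was near the limit of detection. It had 22 and 19 counts in WT, or 2.31 and 2.499 CPM. In KD it had 2 counts in replicate 1 and 5 in replicate 2, or 0.378 and 2.36 CPM. Replicate 1 was far below WT, at a ratio of 0.158 (95% exact interval 0.0185 to 0.607, counting error only), while replicate 2 was at 0.986 (0.304 to 2.49) and within the WT range. The log2 fold change of -1.28 ± 0.68 (adjusted p = 0.277, edgeR) was -2.61 ± 0.89 and called lower without KD replicate 2 (adjusted p = 0.0208, where 5.31% of all genes were called lower) and -0.03 ± 0.77 without KD replicate 1. No direction common to both KD libraries could be read for CDH1 at this depth.

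Among the repressors of CDH1, ZEB1 had 165 and 151 CPM in WT and 133 and 120 CPM in KD. Both KD values were lower, and the log2 fold change was -0.32 ± 0.18 (adjusted p = 0.294, edgeR). Its exons hold 41.3% GC, within the range of genes that were low in KD replicate 2. With the correction for length and GC content the value turned to 0.11 (adjusted p = 0.641), near the median of 0.09 over all genes in that fit. ZEB2 had 32.8 and 31.6 CPM in WT and 29.3 and 31.2 CPM in KD and showed little difference between any of the libraries, with a log2 fold change of -0.10 ± 0.19 (adjusted p = 0.763) that turned to 0.23 with the same correction. SNAI2 (SLUG) had 54.9 and 59.8 CPM in WT and 54.2 and 70.9 CPM in KD. One KD library lay below and one above the WT pair, and the log2 fold change was 0.11 ± 0.21 (adjusted p = 0.744). SNAI1 (SNAIL) had 25 and 22 counts in WT and 11 and 9 in KD, or 2.63, 2.89, 2.08 and 4.25 CPM. Its KD values again stood on either side of WT, and the log2 fold change of 0.01 ± 0.44 (adjusted p = 0.987) became -0.40 without KD replicate 2 and -0.36 with the correction.

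**Figure D2:**
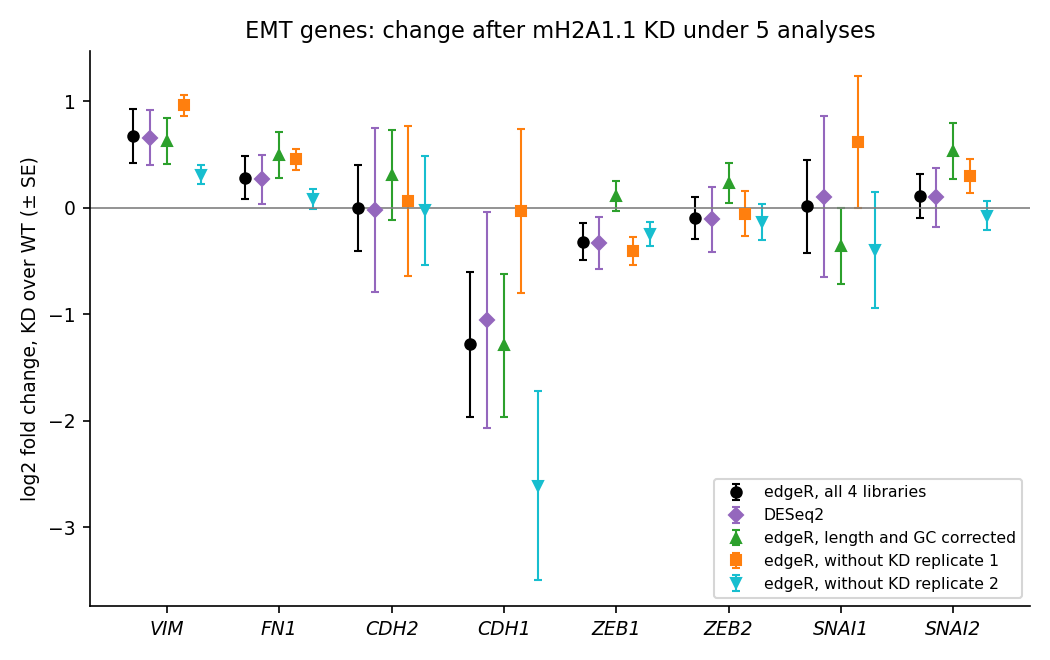
Log2 fold change of KD over WT (points) with its SE (bars) for the 8 EMT genes under 5 analyses: edgeR on all 4 libraries, DESeq2, edgeR corrected for length and GC content, and edgeR without each KD library. VIM is above 0 in all 5, between 0.31 and 0.96, whereas CDH1 spans -2.61 to -0.03 and ZEB1 and ZEB2 change sign with the correction. The median over all genes is 0.09 in the corrected fit.

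The place of the EMT genes against the GC trend differed between the KD libraries. The class medians are of genes of at least 5 CPM in WT, with a constant added to CPM before the log. No constant was added for the EMT genes. CDH1, CDH2 and SNAI1 lie under that level and are not set against a class here. In KD replicate 2, VIM, FN1, SNAI2 and ZEB2 lay above the median of their GC class, by 0.35 (ZEB2) to 0.86 (FN1) in log2. ZEB1 differed from its class by 0.00. In KD replicate 1, VIM and FN1 lay 0.17 and 0.16 above their class and SNAI2 0.00, while ZEB2 and ZEB1 stood at -0.05 and -0.16. With the correction, VIM, FN1 and SNAI2 had log2 fold changes of 0.63, 0.50 and 0.53, none called (adjusted p = 0.144, 0.197 and 0.247), against a median of 0.09 over all genes in that fit. The part of base composition in the uncorrected values was otherwise not tested.

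**Figure D3:**
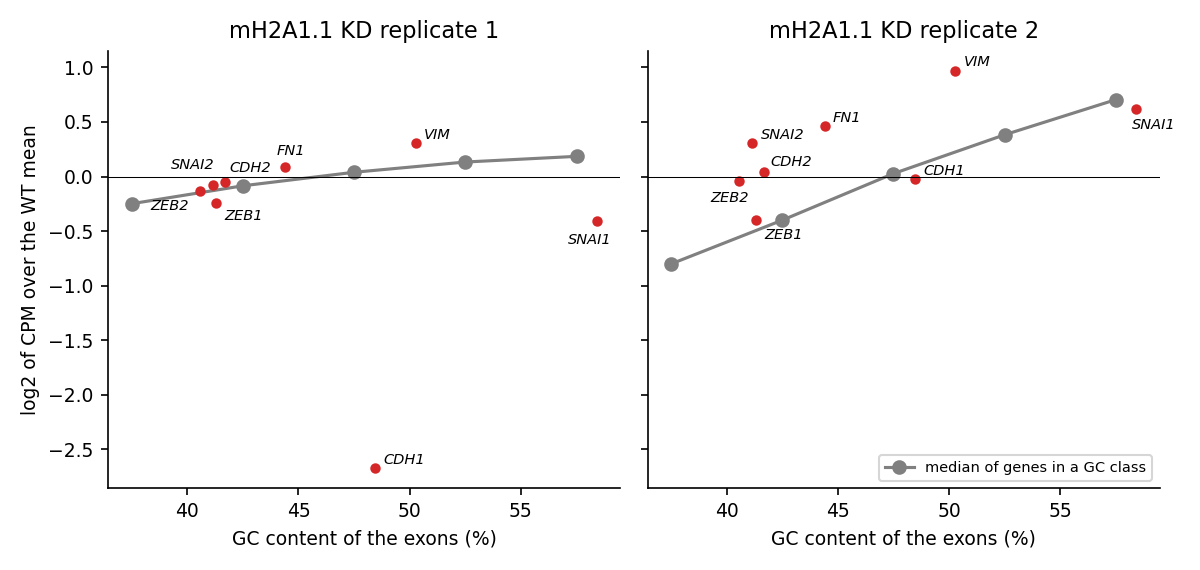
Log2 of each KD library's CPM over the WT mean (y axis) against exon GC content (x axis) for the 8 EMT genes (red). Grey points are medians of genes of at least 5 CPM in WT in 5 GC classes (outer classes under 40% and over 55% drawn at the edges). CDH1, CDH2 and SNAI1 lie under that level. The grey medians run from -0.80 to 0.71 in KD replicate 2 and from -0.25 to 0.19 in KD replicate 1, and CDH1 is low in replicate 1 only.

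Where mH2A1.1 and total mH2A1 lie at these genes was read from the peak lists, which hold 30687 and 24222 peaks built of bins of 3000 bp and were called on 1 library each, so no replicate error can be given. A peak lay within 500 bp of the start site (TSS) of 3 of the 10 genes for mH2A1.1 (CDH1, SNAI1 and TWIST1) and of 2 for total mH2A1 (CDH1 and SNAI1), against 37.8% and 21.2% of the 23061 genes matched to the annotation. A common peak, in which the mH2A1.1 peak shares at least 1 bp with a total mH2A1 peak, lay at the TSS of CDH1 and SNAI1, against 23.8% of all genes. These shares are close to those of all genes. Among genes of 1 to 5 CPM in WT, the range of CDH1 and SNAI1, 44.9% had an mH2A1.1 peak, 25.5% a total mH2A1 peak and 29.5% a common peak there. Within 1 kb, 4 genes had an mH2A1.1 peak, 3 a total mH2A1 peak and 2 a common one (39.7%, 23.1% and 24.6% of all genes), and within 3 kb these were 5, 3 and 2 (45.8%, 29.8% and 27.3%).

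The peaks at CDH1 and SNAI1 were broad. At CDH1 (chr16:68737292-68835537, plus strand, GRCh38), an mH2A1.1 peak of 69000 bp ran from -7291 to 61708 bp of the TSS and lay whole within a total mH2A1 peak of 126000 bp, and common peaks covered 90.8% of the gene. At SNAI1 (chr20:49982980-49988886, plus strand), an mH2A1.1 peak of 123000 bp, of which 114000 bp were shared, held the whole gene. mH2A1.1 peaks of at least 60000 bp lay at the TSS of 5.65% of all genes, peaks of at least 120000 bp at 1.83%, and common peaks covered at least 50% of the body of 16.4%. These widths were compared after they had been seen. TWIST1 had a single mH2A1.1 bin over its TSS, from -1364 to 1635 bp of it, with no share in total mH2A1. An mH2A1.1 peak of any width without such a share lay at the TSS of 14.0% of all genes.

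The other 7 genes had no peak within 500 bp of the TSS. VIM (chr10:17228241-17237593, plus strand) had an mH2A1.1 bin inside the gene, from 760 to 3759 bp after the TSS, without a total mH2A1 peak there. This bin lay within 500 bp of the start of another annotated VIM transcript. FN1 (chr2:215360440-215436073, minus strand) had no peak of either list in its 75634 bp, and its nearest was a total mH2A1 peak 5928 bp before the TSS. ZEB1 had a common peak 4495 bp before its TSS, ZEB2 a total mH2A1 peak 944 bp before and SNAI2 an mH2A1.1 peak 2261 bp before, and none of the peaks reached the TSS. CDH2 had 2 common bins of 3000 bp inside the gene, starting 16946 and 178946 bp after the TSS and covering 2.45% of its length. Common peaks covered 18.5% of TWIST2 away from its TSS. The 5 EMT genes of highest CPM in WT (VIM, FN1, ZEB1, SNAI2 and ZEB2) had no peak within 500 bp of the TSS in either list. For VIM this holds for the start of the gene only, and not for the start of any transcript. Of all genes, 37.8% had an mH2A1.1 peak and 21.2% a total mH2A1 peak there. No share was taken for genes of a level like theirs, so no link of peaks to level can be read. The EMT genes with a common peak lay between 2.31 and 2.89 CPM in WT, which describes 10 genes without a test.

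**Figure D4:**
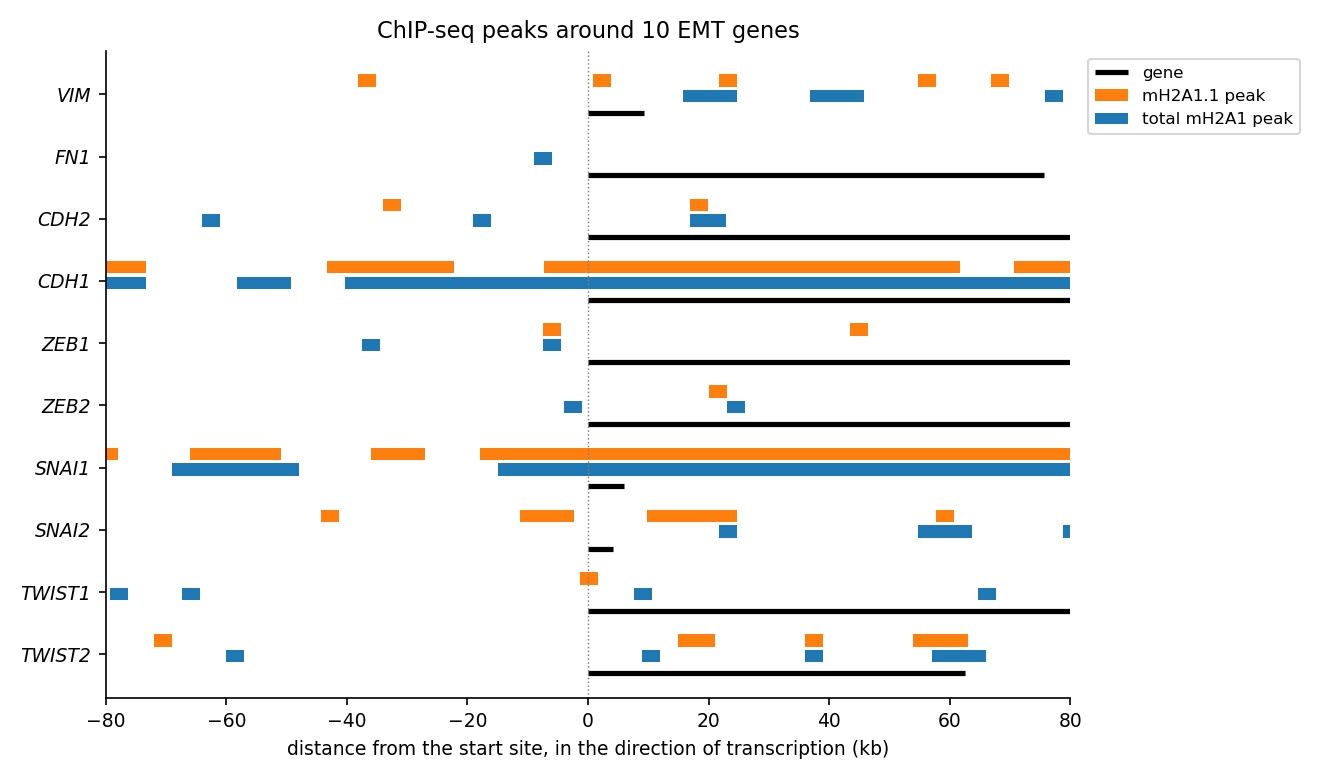
Peaks of mH2A1.1 (orange) and total mH2A1 (blue) around the 10 EMT genes by distance from the TSS in kb, with each gene drawn as a black line from its TSS, cut at 80 kb. Long peaks of both lists run over the TSS of CDH1 and SNAI1, a single mH2A1.1 bin over that of TWIST1, and none over the others.

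The wider EMT programme was read from 7 lists of named genes, by the same calls. Of epithelial adhesion and junction genes, edgeR called 0 of 19 and DESeq2 called 3 of the 12 it gave an adjusted p as higher and 0 as lower (5.52% and 5.73% of all genes). The median log2 fold change was 0.39 against 0.01 over all genes (0.55 against 0.09 with the correction for length and GC content). Of the 19, 18 were above 0, and in 13 of 19 both KD libraries lay above both WT libraries (32.5% of all genes). The 3 were CLDN4, JUP and PKP3. CLDN4, a tight junction claudin, had 71.9 and 73.5 CPM in WT and 141 and 285 CPM in KD (log2 fold change 1.54 ± 0.33, adjusted p = 0.176 in edgeR and 0.000395 in DESeq2). JUP, the plakoglobin of desmosomes and adherens junctions, had 60.8 and 51.2 CPM in WT and 109 and 192 CPM in KD, and PKP3, a desmosomal plakophilin, 14.6 and 16.7 CPM against 24.4 and 35.9 CPM. All 3 were called without KD replicate 2 (CLDN4 0.96, JUP 0.96 and PKP3 0.65 in log2), when 2.74% of all genes were called higher, and CLDN4 and JUP with the correction for length and GC content, when 2.04% were. The catenins CTNNA1 and CTNNB1 and the desmosomal linker DSP, the most abundant of the list, had log2 fold changes of 0.27, 0.31 and 0.46, none called. JUP and PKP3 had common peaks at the TSS, as did 12 of the 22 genes of the list in the count tables (23.8% of all genes). CLDN4 had none at its TSS, but common peaks covered 89.7% of its body. In the other lists, a common peak lay at the TSS of 9 of 20 other transcription factors and 7 of 15 corepressors and cofactors. It did so for 11 of 34 matrix genes, 5 of 15 epithelial regulators, 5 of 24 inducers and 2 of 12 genes of SNAI1 stability. KRT8 and KRT18, keratins of simple epithelia from the marker list, had 496 and 555 CPM and 344 and 380 CPM in WT and 862 and 1364 CPM and 515 and 808 CPM in KD. Their log2 fold changes were 1.08 and 0.87 (adjusted p = 0.194 for both in edgeR, not called). DESeq2 called both higher (adjusted p = 0.00516 and 0.0344), as 5.52% of all genes. Their exons hold 55.9% and 55.7% GC, a class with medians of 0.185 and 0.705 in KD replicates 1 and 2. The other markers of that list, VIM, CD44 and EGFR, had 0.68, 0.05 and -0.21.

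Of mesenchymal matrix, surface and cytoskeleton genes, the list closest to VIM and FN1, edgeR called 0 of 26 and DESeq2 6 of 22 higher and 1 lower (5.52% and 5.73% of all genes). The median log2 fold change was 0.16 (0.27 with the correction, against 0.09 over all genes in that fit), and 21 of the 26 were above 0. In 15 of 26 both KD libraries lay above both WT libraries and in 2 below (32.5% and 32.4% of all genes). COL1A1, a chain of type I collagen, had 9.68 and 8.68 CPM in WT and 18.3 and 33.1 CPM in KD (log2 fold change 1.42 ± 0.32, adjusted p = 0.192 in edgeR and 0.0167 in DESeq2), and its partner chain COL1A2 had 21.99 and 27.8 CPM against 41.0 and 57.2 CPM. TNC (tenascin C) had 195 and 202 CPM against 307 and 425 CPM. These 3 were also called with the correction and without KD replicate 2. COL5A1 had a log2 fold change of 0.66 and was called without KD replicate 2 as well, but not with the correction, at 0.30 (adjusted p = 0.255, edgeR). MYL9, a myosin light chain, and S100A4 had 0.84 and 0.90 with most of the difference in KD replicate 2 (247 and 406 CPM against 131 and 173 CPM in replicate 1), and neither was called with the correction or without that library. NT5E, the ecto-nucleotidase CD73, was the one called lower, with 608 and 617 CPM in WT and 423 and 342 CPM in KD. It was not called with the correction (-0.45) or without KD replicate 2 (-0.53). The most abundant members, THBS1, AXL and CD44, had log2 fold changes of 0.33, 0.25 and 0.05, none called.

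Among other transcription factors of EMT, DESeq2 called 1 of 10 higher and 1 lower (5.52% and 5.73% of all genes). SOX4 had 38.1 and 34.2 CPM in WT and 67.8 and 61.0 CPM in KD (log2 fold change 0.84 ± 0.19), with the KD libraries close together, and was called with the correction and without KD replicate 2 too. HMGA2, an architectural chromatin protein, had 167 and 149 CPM against 110 and 89.8 CPM, and its log2 fold change of -0.65 was -0.16 with the correction and -0.52 without KD replicate 2, called in neither. Its exons hold 39.4% GC. ETS1, FOSL1 and TEAD1, the most abundant, had log2 fold changes of 0.02, 0.34 and -0.48, none called. Of epithelial transcription and splicing regulators, DESeq2 called 0 of 4 and edgeR 0 of 6, with EHF, KLF4 and KLF5 at -0.44, 0.13 and -0.13. MIR200CHG, the host transcript of part of the miR-200 family, which represses ZEB1 and ZEB2, was listed at 0 with a common peak at its TSS.

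Of inducing ligands, receptors and signal transducers, DESeq2 called 1 of 19 higher and 1 lower (5.52% and 5.73% of all genes). The median log2 fold change in edgeR was -0.15 over 21 genes. With the correction it was 0.08, against 0.09 over all genes in that fit. In 6 of 21 both KD libraries lay above both WT libraries and in 11 below (32.5% and 32.4% of all genes). IL6, an inflammatory cytokine, had 102 and 93.8 CPM in WT and 50.8 and 58.1 CPM in KD (log2 fold change -0.85 ± 0.18, adjusted p = 0.183 in edgeR and 0.0317 in DESeq2), was called lower with the correction (1.59% of all genes) and without KD replicate 2, and had a common peak at its TSS. NOTCH1, a receptor, had 102 and 108 CPM in WT and 134 and 286 CPM in KD (log2 fold change 0.99) and was not called without KD replicate 2, at 0.36. EGFR, MET and HIF1A, the most abundant, had -0.21, -0.30 and -0.38, none called. Of the corepressors and cofactors of SNAI and ZEB proteins (14 in the fit) and of the genes that control SNAI1 protein stability (12), neither tool called any, and their median log2 fold changes were 0.02 and -0.05. AJUBA and DNMT1 of the former had -0.01 and 0.00 and SMARCA4 0.64, and CSNK1A1, FBXL5 and FBXO11 of the latter -0.09, -0.18 and -0.34. At an unadjusted p under 0.05 with a fold over 1.5, edgeR gave 6 junction genes higher and 0 lower, 6 matrix genes higher and 1 lower, 1 higher and 1 lower among the other transcription factors and among the corepressors, 1 higher and 2 lower among the inducers, and 0 in the lists of epithelial regulators and of SNAI1 stability, where 18.8% of all genes passed.

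**Figure D5:**
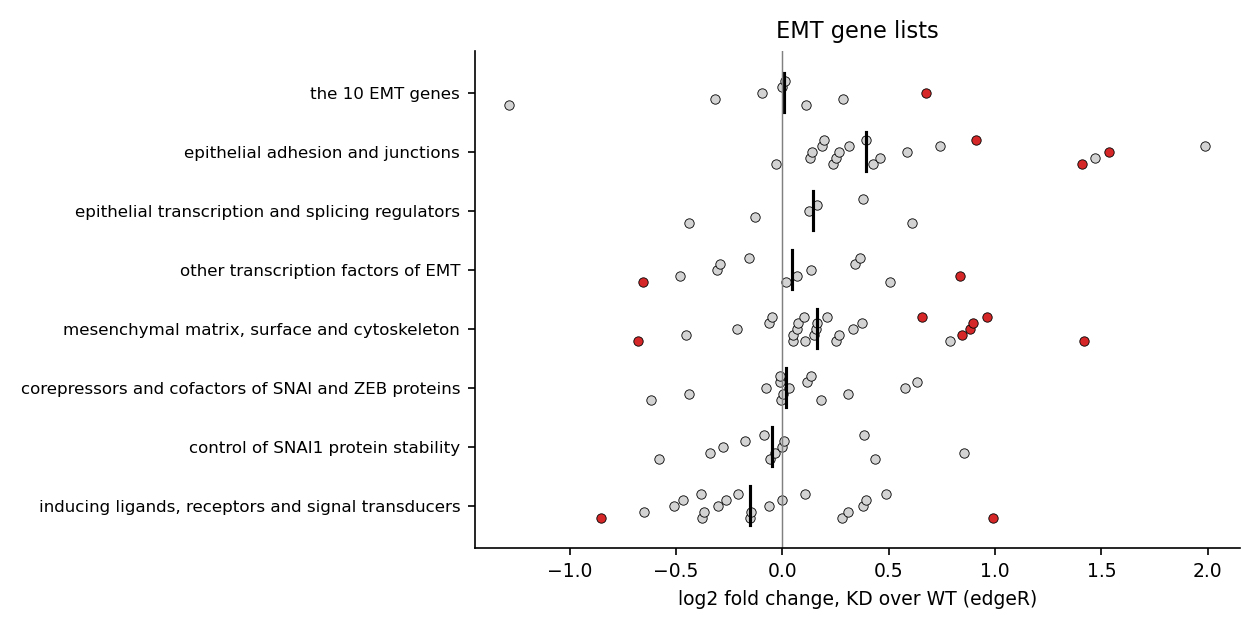
Log2 fold change of KD over WT in edgeR (x axis) for each gene in the fit of the 10 EMT genes and of the 7 EMT lists, 1 point per gene, red where DESeq2 called it, with a black bar at each list's median. The epithelial adhesion list has the highest median (0.39), and the points called lower are HMGA2, NT5E and IL6.

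The genes whose pattern over the 4 libraries was closest to that of VIM and ZEB1 were found by the distance of log2 CPM, each gene centred on its mean, among 7378 genes of at least 20 CPM. Nearest to VIM were SLC7A5 and DHX37 (0.0192 and 0.0271 on the log2 scale) and to ZEB1 FAM210A and ASCC3 (0.0144 and 0.0216). With 4 libraries such patterns are common, and 590 and 586 genes lay within 0.2 of VIM and ZEB1.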

How the data were processed

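RNA-seq counts of 4 libraries and ChIP-seq peak positions of 2 libraries were analysed; the 4 PCHiC samples and the input of the ChIP-seq were not analysed here. The deposited counts are reads per gene, without normalization, from the authors' alignment to GRCh38 (STAR 2.5.1), with a mapping quality limit of 10, duplicates taken out and htseq-count run with its defaults. Without molecular identifiers, the removal of duplicates can lower the counts of densely covered genes such as VIM and FN1, and the default counting leaves out reads that overlap more than 1 gene. The deposited peaks are positions on GRCh38 called by the authors against the input, with all scores at 0. The annotation release behind the counts is not given in the sources used here, and 23061 of the 23167 identifiers matched GENCODE release 44, from which positions, lengths and GC content came.

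Counts were tested with edgeR 4.0.16 (TMM factors, its low-count filter, quasi-likelihood test, Benjamini-Hochberg adjustment) in R 4.3.3, without genes of chromosomes 21, 22 and X. DESeq2 1.42.0 (the study used DESeq2) was an alternative, and without an adjusted p from it a gene counts as not tested by it. CPM used the TMM factors and RPKM the summed exon length. Depth was 5584962 and 2309549 counts in KD and 9794674 and 7856892 in WT. Calls were made at a fold over 1.5 with adjusted p under 0.1. The length and GC correction removed lowess trends (span 0.3) of each library as offsets. Peaks were set against gene starts in Python 3.11.15, with pandas 2.3.3, and intervals of count ratios came from scipy 1.17.1. Promoter sequences are RefSeq's. The edgeR test without chromosomes 21, 22 and X, the EMT genes and the 7 lists were chosen with earlier results of these data known. From each list, the 3 genes of highest mean WT CPM and each gene called by edgeR or DESeq2 were named, and for VIM and ZEB1 the 2 genes nearest in pattern; the rule also covered FN1, whose nearest genes are not reported here. KRT8 and KRT18 come from a list of cell line markers. Of the genes listed, TJP1, MARVELD2, EHMT2 and the marker PTPRC were not analysed here. Other tools, normalizations, filters and windows were tried, and each library was left out in turn.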

Additional observations from a re-analysis of the deposited data

How the results depend on the processing

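The counts of calls depended strongly on the analysis. Against 0 calls in edgeR, the number of genes called was 874 in DESeq2, 945 in DESeq2 with chromosomes 21, 22 and X kept, 2139 with no filter on low counts, 398 with the correction for length and GC content, and between 2 and 4744 with 1 library left out (909 without KD replicate 2 and 4744 without KD replicate 1). The other EMT genes called were 14, 11, 20, 10 and 0 to 35 in the same order, and the 10 EMT genes gave 1 call in DESeq2, 1 with no filter (VIM both times) and 0 to 1 with 1 library left out (VIM without KD replicate 1, CDH1 without KD replicate 2). Genes tested numbered 7765 in DESeq2, 9262 in DESeq2 with chromosomes 21, 22 and X kept, 15068 with no filter and 10963 with the correction. The other EMT genes were not set against the share of all genes here, so their counts are no result about EMT genes. The cause of these shifts was not tested. Upper-quartile factors, DESeq2 size factors in edgeR and edgeR with all genes gave 0 calls.

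With the replicate number as a block, edgeR called 2208 of the 10963 genes tested, among them 21 of the other EMT genes and 0 of the 10. The labels name no shared batch behind the numbers, and the deviations of WT replicate 1 and KD replicate 1 correlated at 0.295.

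FN1 kept its direction under all 12 alternatives (0.08 to 0.50 in log2) and VIM too (0.31 to 0.96), none of the FN1 values being called. CDH1 ranged from -2.61 to -0.03, the latter with an SE of 0.77 without KD replicate 1, so no direction common to both KD libraries can be read. With the correction for length and GC content CDH2 turned to 0.31, ZEB1 to 0.11, ZEB2 to 0.23 and SNAI1 to -0.36, where the median over all genes was 0.09. CDH2, at -0.00, was 0.00127 with DESeq2 size factors, 0.0632 with the block and between -0.28 and 0.31 overall (-0.277 to 0.291 with 1 library left out). SNAI1, at 0.01, was -0.00619 with no filter and between -0.397 and 0.617 with 1 library left out, and SNAI2, at 0.11, between -0.0748 and 0.299.

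With a window of 3 kb, 5 of the 10 genes had an mH2A1.1 peak at the TSS in place of 3, and with 1 kb or the start of any transcript 4. The gene gained with 1 kb, and with the start of any transcript, was VIM. Common peaks stayed at 2 in each window and with at least 50% of the peak shared. A stricter score could not be tried, since all scores are 0. The length of the canonical transcript, added after seeing the data, moved WT levels per length, as given above. Depth limits CDH1, CDH2 and SNAI1, each under 30 counts in every library.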
